A study of Mus musculus with 4 samples.

Results

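The nuclear genes for the proteins of the mitochondrial ribosome were followed in mouse intestinal organoids over Apc recombination and over time in culture. They were chosen by symbol: every gene called Mrpl or Mrps followed by a digit on a probe set that names no other gene. This gave 76 genes, read by 156 probe sets, of 18193 genes in all. All 76 passed the level filter, an intensity of at least 20.9 on their highest array, as did 13192 of all genes. Mrpl30 and Mrpl53 lie only on probe sets that name several genes and were not analysed here.

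The organoids are cultures of epithelium grown in Matrigel, and both Apc alleles were floxed in every group (Apc fl/fl). The Apc protein helps to keep beta-catenin low, and Wnt target genes are switched on without it. Organoids either stayed untreated or received 4-hydroxytamoxifen (4OHT) for 24 h to recombine Apc, and they were collected on day 4 or day 6. The labels describe the untreated organoids as normal and the 4OHT organoids as Apc-deficient. They do not name the Cre driver. The 4 groups (untreated day 4, 4OHT day 4, untreated day 6, 4OHT day 6) had 1 array each. No group therefore had a replicate, and the arrays are not stated to come from separate cultures.

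The mitochondrial ribosome makes the few membrane proteins of the respiratory chain that mitochondrial DNA still encodes. Its RNAs come from mitochondrial DNA, while all of its proteins are encoded in the nucleus, made in the cytosol and imported. Its small subunit reads the message and its large subunit joins the amino acids and feeds the chain to the inner membrane. Part of the proteins have bacterial homologues and part exist only in mitochondria. In the intestine, oxidative metabolism differs along the crypt and villus, and enterocytes are rich in mitochondria.

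The 4 arrays had median probe-set intensities of 19.3 to 22.0. The deposited intensities of the 2 days were on scales whose relation is not known. Of the Apc probe sets, the brightest read 27.2 untreated and 57.7 with 4OHT at day 4, then 99.6 and 170 at day 6. Another read 49.7 and 33.9, then 107 and 140, and another 80.4 and 83.9, then 17.3 and 23.8, so they disagreed on 4OHT at day 4 and over time. These probe sets are not placed against the floxed exons in the sources used here, so the reading checks nothing about the deletion. The 6 epithelial markers summed to between 10457 and 25741 on each array. The 6 tested fibroblast and muscle markers summed to 110 to 203, the 3 endothelial ones to 39.5 to 81.1 and the 3 tested immune ones to 52.6 to 97.4. No defining marker of these other cell types exceeded an intensity of 59.4.

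The promoters of 6 members are shown because the results below turn on these genes or because they hold a motif of a known regulator of mitochondrial genes. The factors searched for were the ETS family (to which GABP, the nuclear respiratory factor built from Gabpa and Gabpb1, belongs), NRF1, YY1 and the E-box that MYC binds. Each line gives the 150 bases before the start site in RefSeq, build GRCm38.p6, on the strand of the gene. Capitals mark a motif, on either strand. The positions are chr4:49521084-49521233 (minus strand) for Mrpl50, chr11:94653641-94653790 (plus) for Mrpl27, chr8:71464776-71464925 (plus) for Mrpl34, chr13:73330859-73331008 (plus) for Mrpl36, chr9:105053118-105053267 (plus) for Mrpl3 and chr11:120484487-120484636 (plus) for Mrpl12.
Mrpl50: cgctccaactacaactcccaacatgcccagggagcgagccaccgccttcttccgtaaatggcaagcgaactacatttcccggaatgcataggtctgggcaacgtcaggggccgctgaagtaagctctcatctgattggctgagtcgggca
Mrpl27: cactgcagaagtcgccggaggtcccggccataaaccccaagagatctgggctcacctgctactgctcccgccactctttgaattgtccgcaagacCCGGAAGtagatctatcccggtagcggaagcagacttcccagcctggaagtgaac
Mrpl34: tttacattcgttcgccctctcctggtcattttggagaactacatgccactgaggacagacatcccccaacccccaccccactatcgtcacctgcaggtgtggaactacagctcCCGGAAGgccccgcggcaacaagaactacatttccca
Mrpl36: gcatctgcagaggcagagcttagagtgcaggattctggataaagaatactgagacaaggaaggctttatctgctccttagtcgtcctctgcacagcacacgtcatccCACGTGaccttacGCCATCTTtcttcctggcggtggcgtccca
Mrpl3: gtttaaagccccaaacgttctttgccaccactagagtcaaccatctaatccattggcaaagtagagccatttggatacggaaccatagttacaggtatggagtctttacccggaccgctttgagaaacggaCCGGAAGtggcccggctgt
Mrpl12: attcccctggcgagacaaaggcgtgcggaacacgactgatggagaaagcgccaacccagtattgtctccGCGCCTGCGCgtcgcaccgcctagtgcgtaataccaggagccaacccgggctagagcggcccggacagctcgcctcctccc

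In these windows Mrpl27, Mrpl34 and Mrpl3 hold the ETS letters CCGGAAG. Mrpl36 holds the E-box CACGTG and, in reverse, the YY1 letters AANATGGC. Mrpl12 holds the NRF1 letters (GCGCA, any base, GCGC) in reverse, and Mrpl50 holds none of these 4 motifs in the bases shown. Over 300 bases (250 before to 50 after the start), 67 of the 76 members had a RefSeq promoter, and both strands were searched. The ETS letters were in 25 of the 67, or 37.3%, against 9.93% of 27025 promoters of all genes and 18.4% of 10638 promoters of genes past the level filter. The YY1 letters were in 21 members, or 31.3%, against 6.96% and 9.41%. NRF1 letters were in 12, or 17.9%, against 5.19% and 10.6%. The E-box was in 5, or 7.46%, against 8.09% and 11.3%. These are matches of letters only. The start sites of Mrpl46 and Mrps11 on chromosome 7 lie 42 bases apart on opposite strands, so part of this sequence serves both windows.

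Between 4OHT and untreated organoids, the mitochondrial ribosomal protein genes differed by little on either day. No member differed by 2-fold on the scale used here, which adds 16 to each intensity. At day 4 their median difference was 0.14 on the scale log2(intensity + 16), which all differences below use, and the quartiles were -0.02 and 0.29. At day 6 the median was -0.23, with quartiles of -0.37 and -0.07. The medians over all 13192 genes were 0.06 and -0.00 (-0.00443). The members were thus spread around a small positive value on the first day and a small negative one on the second, and quantile normalization (0.05 and -0.12) and median centring (0.09 and -0.19) kept both signs.

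For 2-fold differences with 4OHT, 0 of 76 members were counted higher and 0 lower on day 4, where 1% of all genes were higher and 1.22% lower. On day 6 the counts were again 0 and 0, against 0.879% and 2.97% of all genes. At 1.5-fold, 2 members were higher and 2 lower on day 4, where 7.87% and 5.62% of all genes were. On day 6 at 1.5-fold, 0 were higher and 4 lower, against 4.74% and 8.76%. With 16 added to each intensity, the largest difference of any member was 1.71-fold on day 4 and 1.94-fold on day 6. As intensities alone, Mrps27 on day 4 (39.0 untreated, 18.2 with 4OHT) and Mrpl50 on day 6 (305 and 149) exceeded 2-fold.

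The sign of the difference told the days apart more than its size did. On day 4, 54 members (71.1%) were above 0, against 56.7% of all genes. On day 6, 61 members (80.3%) were below 0, against 50.5% of all genes. The same gene was above 0 on day 4 and below 0 on day 6 in 42 members (55.3%), against 24.5% of all genes. The reverse held in 3 members, against 17.1%. Another 12 members (15.8%) were above 0 on both days, against 32%, and 19 members (25%) were below 0 on both, against 26%. Quantile normalization lowered the first 3 of these counts to 47 above 0 on day 4 (51.7% of all genes), 49 below 0 on day 6 (45.4%) and 29 with that change of sign (19%).

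**Figure D1:**
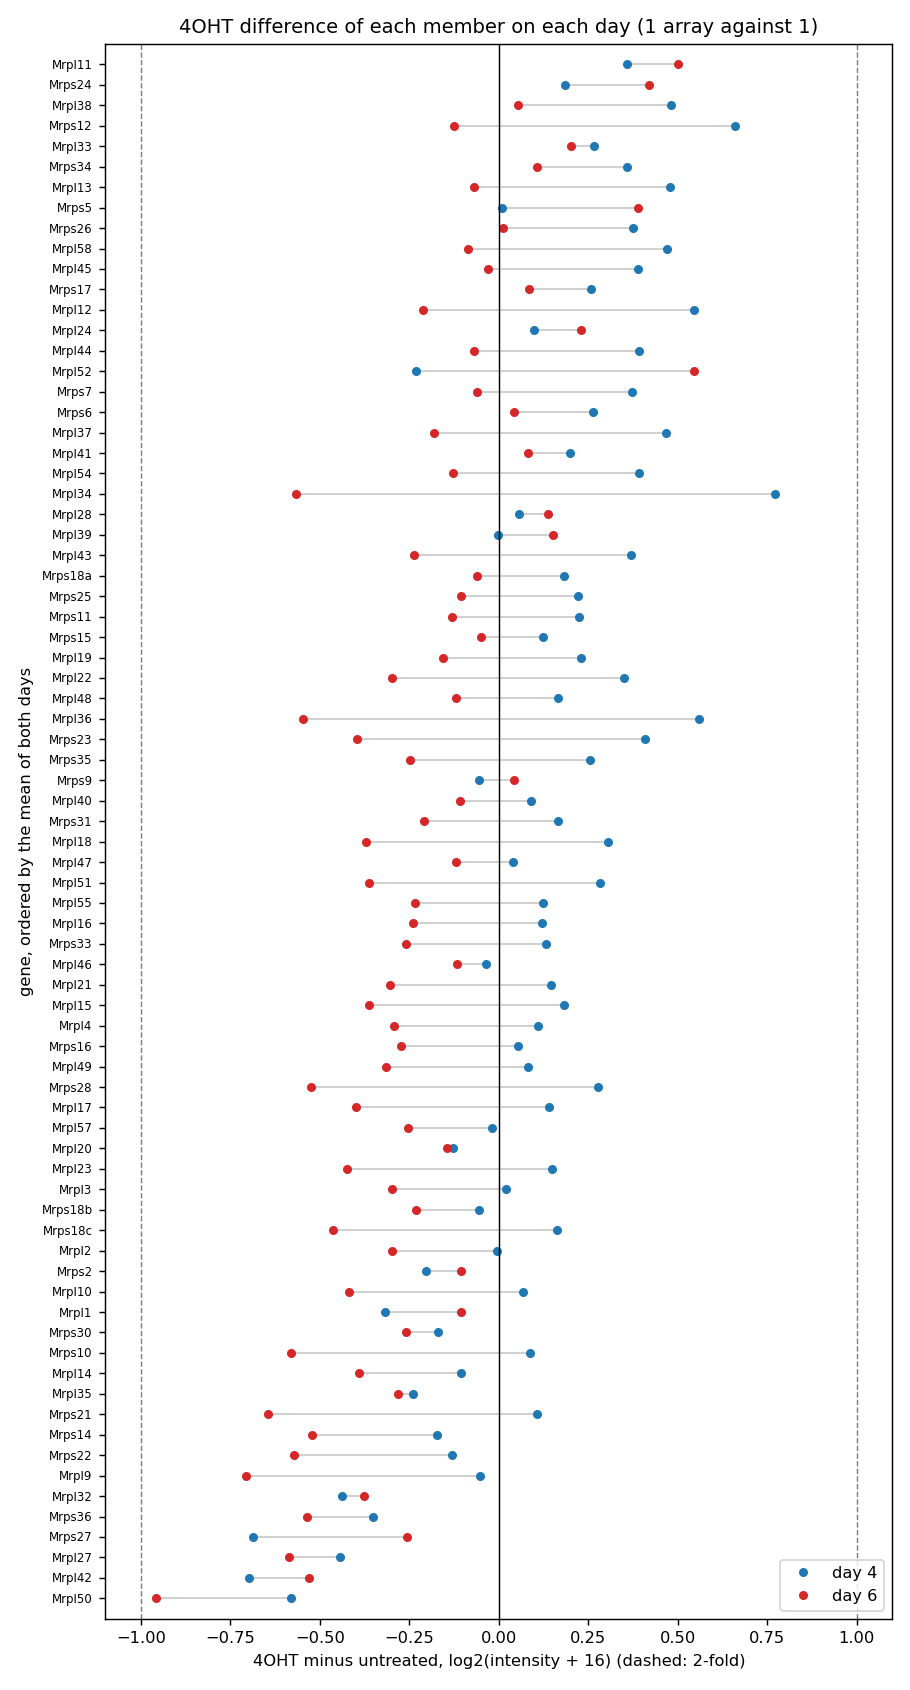
Difference between 4OHT and untreated organoids for each of the 76 members, on the scale log2(intensity + 16), at day 4 (blue) and day 6 (red), with 1 array against 1 for each point. Genes are ordered by the mean of both days, dashed lines mark 2-fold, and no point lies past them.

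A test was possible only over all 4 arrays together, with 4OHT and day as additive terms in limma and the difference between the days as the error. In it, 0 members rose and 0 fell with 4OHT after Benjamini-Hochberg adjustment, against 0.97% and 2.25% of all genes (3.22% together). The effect is the mean of the 2 days' differences, so opposite signs cancel in it and their gap adds to the error. Signs were opposite in 45 members, and the test cannot register a difference of that kind. At an unadjusted p under 0.05 in this test there were 4 of the 76 members, against 1835 of all 13192 genes. The share was thus lower among the members than among all genes. The standard error of a member's effect was 0.21 to 0.27. How far replicate cultures would spread is not measured by it.

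The member nearest the threshold was Mrpl50, a large-subunit protein found in mitochondria and not in bacteria. Its intensity was 93.3 in untreated and 57.1 in 4OHT organoids at day 4. At day 6 it was 305 and 149. The 4OHT array was the lower one on both days, and both day 6 arrays were above both day 4 arrays. Its 4OHT effect over both days was -0.77 ± 0.21 (SE, limma, adjusted p = 0.0655). A dimmer Mrpl50 probe set had the same signs, with 19.8 and 13.9 at day 4 and 116 and 71.3 at day 6.

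Among the large-subunit proteins that were lower with 4OHT on both days, Mrpl42, also without a bacterial homologue, had intensities of 268 and 159 at day 4 and 763 and 523 at day 6 (untreated, then 4OHT). Its limma effect was -0.62 (adjusted p = 0.152). Mrpl27, whose bacterial homologue reaches into the peptidyl transferase centre, had 152 and 108 at day 4, then 473 and 310 at day 6. Its effect was -0.52 (limma, adjusted p = 0.262). Mrpl32, whose precursor is cut by the m-AAA protease before assembly, had 265 and 191, then 590 and 450. Its effect was -0.41 (limma, adjusted p = 0.414). On the brightest probe sets of these 3 genes the 4OHT array was lower within each day, but none of the effects passed the test. A dim Mrpl27 probe set, at 17.5 to 32.6, differed by 0.03 on day 4 and -0.54 on day 6.

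In the small subunit, Mrps27, a pentatricopeptide repeat protein, read 39.0 and 18.2 at day 4 and 54.6 and 43.0 at day 6. The 4OHT value of day 4 was below 20.9, the level that the filter asks of the highest array. Mrps14, a homologue of bacterial S14, read 248 and 218 at day 4 and 732 and 505 at day 6. The remaining genes of this kind named by rule were Mrpl35, with differences of -0.24 and -0.28, and Mrps36. Despite its name, Mrps36 is now known as a subunit of the oxoglutarate dehydrogenase complex and not of the ribosome. Its differences were -0.35 on day 4 and -0.54 on day 6.

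Fewer members were higher with 4OHT on both days. Mrpl11, at the base of the stalk that recruits elongation factors, read 507 and 655 at day 4 and 251 and 362 at day 6. Its limma effect of 0.43 did not pass the test (adjusted p = 0.378). These are values of a probe set marked _x_at, a suffix for probes that may also bind other transcripts, and another Mrpl11 probe set gave 0.53 on day 4 and -0.02 on day 6. Mrpl33, a homologue of bacterial L33, read 151 and 185 at day 4 and 226 and 263 at day 6. Mrps24 differed by 0.18 and 0.42 on its brightest probe set and by 0.39 and -0.50 on its other one. The 5 others named by rule, Mrps34, Mrpl24, Mrps17, Mrpl41 and Mrpl28, differed by 0.06 to 0.36 on day 4 and by 0.08 to 0.23 on day 6. Over the alternatives Mrpl28 reached down to -0.02 and Mrpl24 to -0.0044 on day 4.

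The members with opposite signs on the days included small proteins of the large subunit's core. Mrpl34, a homologue of bacterial L34, read 109 untreated and 198 with 4OHT at day 4, and 317 and 209 at day 6. Its 4OHT difference was 0.77 on day 4 and -0.57 on day 6. Mrpl36, a homologue of bacterial L36, read 75.2 and 119, then 207 and 137, with differences of 0.56 and -0.55. In both genes the 4OHT arrays of the 2 days were close to each other, and the untreated arrays were the extremes.

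In the small subunit, Mrps23 had differences of 0.41 and -0.40, from intensities of 61.9 and 87.4 at day 4 and of 156 and 114 at day 6. Mrps28, a homologue of bacterial S1, had 0.28 and -0.52, from 80.4 and 101 at day 4 and 298 and 202 at day 6. These 4 genes had the widest gap between days among members of opposite sign, and that gap was their selection rule. A dimmer Mrps23 probe set was lower with 4OHT on both days (-0.20 and -0.61), and a dimmer Mrpl34 probe set kept the signs with a smaller day 6 value (0.38 and -0.07). Over time that Mrpl34 probe set went down in both arms (-0.27 untreated and -0.71 with 4OHT), where the brightest went up (1.41 and 0.07).

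By role, a protein of the decoding site and one of the stalk had the same order of arrays at the low end. Mrps12, the homologue of bacterial S12 at the decoding centre, read 216 and 351 at day 4 and 348 and 318 at day 6. Mrpl12, the stalk protein that also binds the mitochondrial RNA polymerase, read 577 and 849, then 929 and 800. In both genes the untreated day 4 array was the low one and the other 3 lay closer together. Mrpl10, the anchor of the stalk, differed by 0.07 and -0.42, and Mrpl1, of the opposite L1 stalk, by -0.32 and -0.11.

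At the peptidyl transferase centre and nearby, Mrpl2 differed by -0.00375 on day 4 and -0.30 on day 6, Mrpl3 by 0.02 and -0.30, and Mrpl16 by 0.12 and -0.24. Around the exit tunnel, Mrpl23 differed by 0.15 and -0.42, Mrpl24 by 0.10 and 0.23, and Mrpl45, the contact with the inner membrane, by 0.39 and -0.03. Mrpl58 (also called Ict1), which hydrolyses peptidyl-tRNA on stalled ribosomes, differed by 0.47 and -0.09. Mrpl44, with a fold like RNase III, differed by 0.39 and -0.07, and the mean over all its probe sets and both days was below 0 (-0.11). None of these 8 passed the test.

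In the small subunit, the early-binding Mrps7 differed by 0.37 on day 4 and -0.06 on day 6, Mrps16 by 0.05 and -0.27, Mrps22 by -0.13 and -0.57, and Mrps2 by -0.20 and -0.11. The 3 paralogues of bacterial S18 all had a lower 4OHT difference on day 6 than on day 4. The same held in 82.9% of all members and 57.7% of all genes. Mrps18a, which sits in the large subunit, had 0.18 and -0.06, Mrps18b had -0.06 and -0.23, and Mrps18c had 0.16 and -0.46. Mrps30, a large-subunit protein despite its symbol, had -0.17 and -0.26. All of these except Mrps18a, Mrps18c, Mrps7 and Mrps16 were below 0 on both days.

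Grouped by subunit, the medians had the same signs. The 26 genes built into the small subunit had medians of 0.16 on day 4 and -0.17 on day 6, and the 49 of the large subunit 0.12 and -0.24. The 45 genes classed as having a bacterial homologue had 0.12 and -0.27, and the 30 classed as found only in mitochondria 0.17 and -0.15. Of the paralogues of bacterial S18, Mrps18a and Mrps18b were counted among the 30 and Mrps18c among the 45. A list of 12 genes whose human counterparts cause mitochondrial disease, among them Mrps22, Mrps34 and Mrpl44, had 0.25 and -0.24. Of these, 9 of 12 were above 0 on day 4 and 11 of 12 below 0 on day 6. The list may lack other disease genes, so these counts hold for the listed genes only. No test between these groups was made.

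The size of the 4OHT difference went together only loosely across the members on the days, which share no array. Over 76 members Pearson's r was 0.25 (Spearman's rho 0.26), against 0.41 (0.29) over all genes. In 63 members (82.9%) the day 6 difference was below the day 4 difference, against 57.7% of all genes. After quantile normalization this held in 50 members (65.8%), against 49%. The median of that gap was -0.36, against -0.08 over all genes.

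With every probe set of these genes counted, not the brightest alone, the signs were alike as a whole and mixed gene by gene. Of 138 member probe sets past the level filter, 85 were above 0 with 4OHT on day 4 and 101 were below 0 on day 6. Their medians were 0.11 and -0.15. With each gene's probe sets averaged, 50 members (65.8%) were above 0 on day 4, against 55.4% of all genes. On day 6, 61 members (80.3%) were then below 0, against 52.3%. For the 34 members with more than 1 such probe set, all of a gene's probe sets had the same sign in 17 members on day 4 and in 17 on day 6. Signs of single members this close to 0 therefore differed between probe sets of 1 gene as often as not. Neither the signs of single probe sets nor their accord within a gene were counted over all genes.

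Several measured quantities moved with 4OHT beside these differences, and their part in the result was not tested. The log2 ratio of the 3' to the 5' probe set of Actb, a measure of RNA integrity and labelling, was higher with 4OHT by 0.94 on day 4 and by 0.62 on day 6. For Gapdh it was higher by 0.87 and 0.56. The spiked hybridization controls differed by -0.38 on day 4 and 0.91 on day 6, and the poly-A controls by -0.45 and 1.37, so their sign turned between days in the direction opposite to the members' median. The 8 tested enterocyte markers summed to 3224 untreated and 1199 with 4OHT at day 4, and to 9870 and 4995 at day 6, and 5 of the 8 fell in the limma test. Of the 5 crypt stem cell markers, 2 rose (Smoc2 and Axin2), and the sums of the 5 were 1420 and 1690, then 5927 and 9568. Of all genes 0.97% rose and 2.25% fell with 4OHT in the limma test. In bulk RNA, fewer cells of a type and less RNA per cell cannot be told apart.

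Over time the members differed more. The median day 6 minus day 4 difference was 0.72 in untreated and 0.35 in 4OHT organoids, against 0.16 and 0.04 over all genes, but in the 4OHT arm quantile normalization turned the members' median to -0.094 and median centring left 0.019. These alternatives moved the median of all genes as well. It was -0.13 and -0.15 (untreated, then 4OHT) after quantile normalization and -0.26 and -0.29 after median centring. Relative to all genes, the members' median was higher by 0.56 and 0.31 as deposited and after median centring, and by 0.25 and 0.06 after quantile normalization.

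The untreated day 6 array carried the highest value of 55 members (72.4%), against 34.6% of all genes. The lowest value was on the untreated day 4 array in 46 members and on the 4OHT day 4 array in 20. For the lowest array the share of all genes was not counted. Median member intensities were 168 (untreated) and 183 (4OHT) at day 4 and 308 and 256 at day 6. Over all genes the medians were 58.8 and 61.4 at day 4 and 84.5 and 81.4 at day 6. The untreated organoids thus spanned the wider range between days, in the medians of the members and of all genes.

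**Figure D2:**
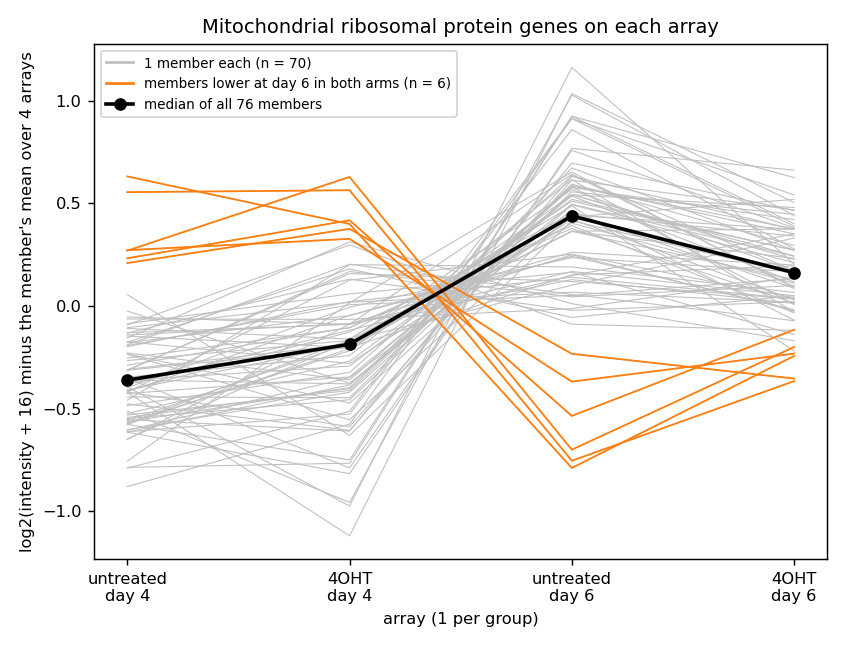
Each line is 1 member on the 4 arrays (horizontal axis), as log2(intensity + 16) minus that gene's mean over the arrays (vertical axis). The black line is the median of all 76 members, with its peak on the untreated day 6 array, and the 6 orange lines are the members lower at day 6 in both arms.

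At least 2-fold higher at day 6 were 29 members (38.2%) in untreated organoids, against 24.1% of all genes, and 2 were 2-fold lower, against 5.29%. In 4OHT organoids 10 members (13.2%) were 2-fold higher, against 16.4%, and 0 were 2-fold lower, against 2.69%. The same 10 were 2-fold higher in both arms, against 14% of all genes. After quantile normalization 3 were higher and 6 lower in untreated organoids, against 12% and 12.6% of all genes. In 4OHT organoids 2 were then higher and 3 lower, against 9.48% and 8.05%. Above 0 in both arms were 58 members (76.3%), against 47.4%, and below 0 in both arms 6, against 39.7%. After quantile normalization 32 members (42.1%) were above 0 in both arms, against 34.7%.

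By lesser differences, 49 members were 1.5-fold higher at day 6 in untreated organoids, against 36.9% of all genes, and 5 lower, against 18.3%. In 4OHT organoids 25 were 1.5-fold higher, against 29%, and 4 lower, against 14.2%. Above 0 in untreated organoids were 70 members, against 55.8%, and below 0 were 6, against 44.1%. In 4OHT organoids 58 were above 0, against 51.8%, and 17 below, against 48%. The members' excess over all genes was thus larger in the untreated than in the 4OHT arm, and this gap between arms was not tested. For each gene the gap between arms equals the gap between the days' 4OHT differences, so it is not a separate result.

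Genes with a high value on at least 1 array moved with the day as a whole. Among the 8544 genes whose highest intensity reached the 75th percentile of all values, 65.1, the medians were 0.65 (untreated) and 0.39 (4OHT). The 74 members in that class had 0.75 and 0.32. With 4OHT, the same class of all genes had 0.10 on day 4 and -0.05 on day 6, and its members 0.14 and -0.23. Over time the members' medians thus lay near those of this class. With 4OHT on day 6 their median lay below that of the class. The class was chosen by the highest of the 4 arrays, so genes high only at day 6 entered it through that day. This choice can raise its medians over time, so their closeness to the members' medians does not show a match by brightness.

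**Figure D3:**
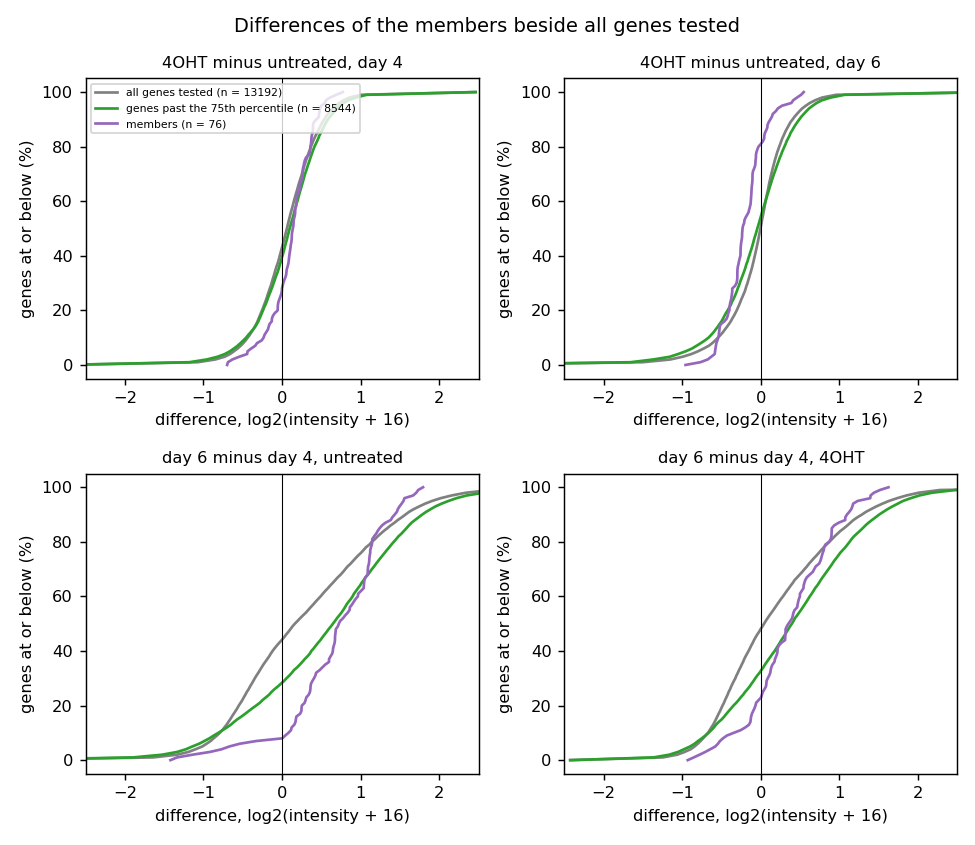
Cumulative share of genes (vertical axis, percent) at or below each difference on the scale log2(intensity + 16) (horizontal axis) for the 76 members (purple), all 13192 genes tested (grey) and the 8544 genes reaching the 75th percentile of intensity (green). At day 6 with 4OHT the members' curve lies to the left of both at their median, -0.23, and crosses them in the lower tail, where the 5th percentile is -0.58 for members, -0.80 for all genes and -0.96 for the bright genes. Over time their median lies near that of the bright genes, at 0.72 beside 0.65 in untreated organoids. The bright genes were chosen by their highest array, which can raise their medians over time. After quantile normalization the members' median in the 4OHT arm turns below 0.

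In the limma test over both arms, 39 members rose with day and 6 fell, against 35.1% and 18.8% of all genes, and 31 did not pass. After quantile normalization these counts were 13 and 11, against 21% and 24.5% of all genes, and after median centring 21 and 8, against 23% and 41.3%. The 5 genes named by rule were those whose smaller difference over the 2 arms was highest. Mrpl3, whose human counterpart is mutated in a cardiomyopathy, read 100 and 102 at day 4 (untreated, 4OHT) and 365 and 294 at day 6. Its day effect was 1.55 ± 0.21 (SE, limma, adjusted p = 2.25e-05). Both day 6 arrays exceeded both day 4 arrays by a wide margin.

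Mrpl42 rose by 1.54 (limma, adjusted p = 2.16e-05) and Mrpl27 by 1.47 (limma, adjusted p = 3.29e-05), from the intensities given above. The dim Mrpl27 probe set differed over time by 0.50 (untreated) and -0.07 (4OHT). Mrps2, a homologue of bacterial S2, read 78.5 and 66.1 at day 4 and 230 and 213 at day 6. It rose by 1.43 (limma, adjusted p = 4.16e-05). Mrpl50 rose by 1.37 with the same test. Mrpl18, a homologue of bacterial L18 that the naming rule did not reach and that was added after its values were seen, read 87.1 and 111 at day 4 and 341 and 260 at day 6. It rose by 1.45 (limma, adjusted p = 6.81e-05), and its untreated difference of 1.79 was the highest of the 76 members. For the 5 genes named by rule the day 6 minus day 4 difference stayed above 0 under every alternative tried, and the lowest value in untreated organoids was 0.54, for Mrpl42.

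**Figure D4:**
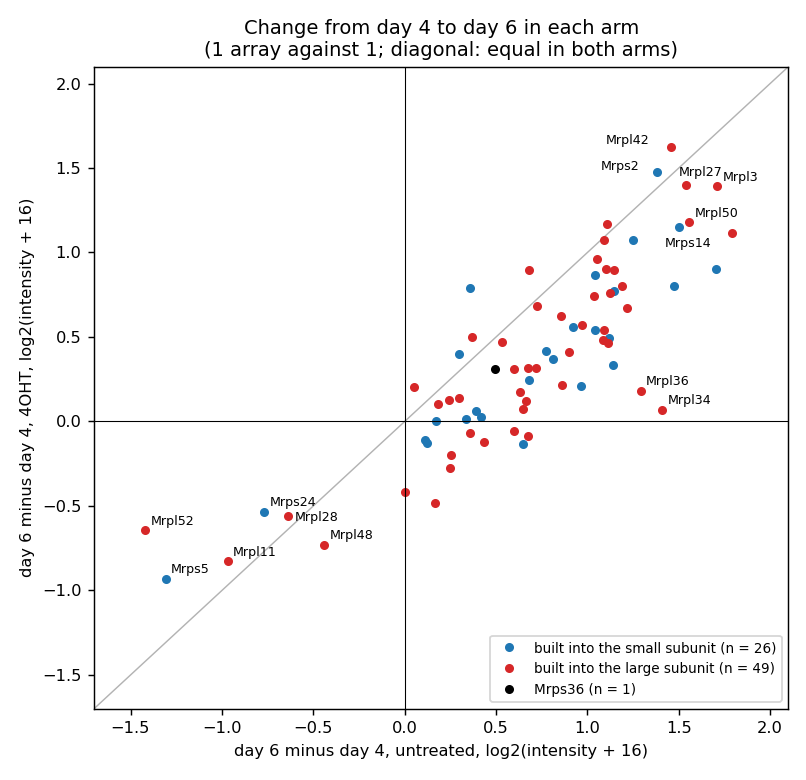
Day 6 minus day 4 difference of each member in untreated (horizontal) and 4OHT organoids (vertical), on the scale log2(intensity + 16), with 1 array against 1 for each value, by subunit. Most points lie below the diagonal of equal differences, Mrpl34 and Mrpl36 far below it, and 6 labelled members lie at the lower left. A point below the diagonal is a gene whose 4OHT difference was lower on day 6 than on day 4, by arithmetic. These are values as deposited, and the 4OHT arm's median turns below 0 after quantile normalization.

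The differences over time went together in the arms, which share no array. Pearson's r over the 76 members was 0.85 (Spearman's rho 0.83), close to 0.88 (0.87) over all genes. Small-subunit genes had medians of 0.79 (untreated) and 0.38 (4OHT), and large-subunit genes 0.72 and 0.31. Of the 26 small-subunit genes 15 rose and 2 fell, and of the 49 large-subunit genes 24 rose and 4 fell. Mrps36 did not pass. Of all genes 35.1% rose and 18.8% fell. These counts are of values as deposited. After quantile normalization 13 of the 76 members rose and 11 fell, against 21% and 24.5% of all genes.

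The 6 members that fell with day were Mrps5, Mrpl52, Mrpl11, Mrps24, Mrpl28 and Mrpl48, the last of which the naming rule did not reach and which was added after its values were seen. Mrps5, a homologue of bacterial S5, read 108 and 109 at day 4 (untreated, 4OHT) and 34.0 and 49.5 at day 6 on its brightest probe set. Its effect was -1.12 (limma, adjusted p = 0.000431). Another Mrps5 probe set read 36.2 and 42.1 at day 4 and 107 and 99.7 at day 6. The probe sets of 1 gene thus ran in opposite directions. Of the 4 Mrps5 probe sets past the level filter, 3 went down in untreated and 3 in 4OHT organoids.

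Mrpl52 read 3567 and 3035 at day 4 and 1323 and 1938 at day 6 on its brightest probe set, with an effect of -1.03 (limma, adjusted p = 0.0015). Its other bright probe sets differed over time by 0.16 and 0.21 in untreated organoids. Mrpl11 had an effect of -0.90 (limma, adjusted p = 0.00207), while another of its probe sets read 136 and 203 at day 4 and 226 and 222 at day 6. Of the 4 Mrpl11 probe sets past the level filter, 3 went down in untreated and 2 in 4OHT organoids. Mrps24 read 837 and 954, then 485 and 654, on one probe set, and 235 and 313, then 534 and 372, on the other. So 5 of the 6 had another probe set past the level filter that was higher at day 6 in both arms, and Mrpl28 did not.

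Of the 6, 4 were read by probe sets of the suffixes _x_at or _s_at, which may bind more than 1 transcript. The 11 members read by such probe sets had median differences over time of 0.17 (untreated) and -0.14 (4OHT), and the 65 others had 0.86 and 0.46. When each gene's probe sets were averaged, 39 members rose and 1 fell, against 30.9% and 15.5% of all genes. Without probe sets of these suffixes, 42 of 73 rose and 2 fell, against 36.1% and 17.6%. The falls in day are therefore reported as uncertain.

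**Figure D5:**
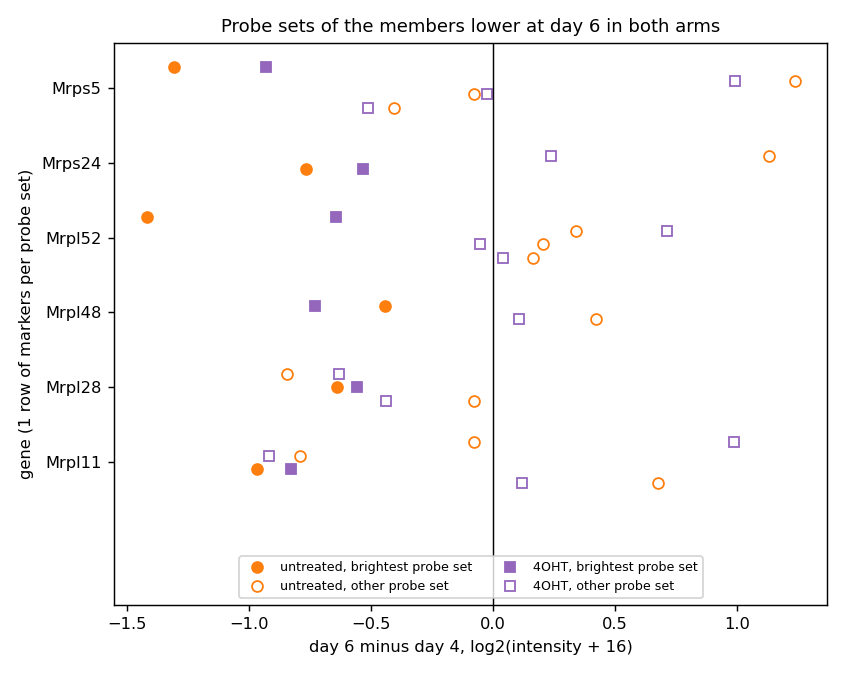
Day 6 minus day 4 difference on the scale log2(intensity + 16) (horizontal axis) for every probe set past the level filter of the 6 members lower at day 6 in both arms (vertical axis), with circles for untreated and squares for 4OHT organoids and filled markers for the brightest probe set. In all genes but Mrpl28 at least 1 open pair lies above 0.

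Quality measures also moved with the day, and their part in the result was not tested. The 3' to 5' log2 ratio of Actb was lower at day 6 by 1.24 in untreated and 1.56 in 4OHT organoids, and that of Gapdh by 0.56 and 0.87. The hybridization controls were lower by 2.36 and 1.07 and the poly-A controls by 2.91 and 1.10. The 5 tested proliferation markers summed to 1735 (untreated) and 1926 (4OHT) at day 4 and to 3689 and 3952 at day 6. Of them, 4 rose with day, against 35.1% of all genes. No batch or date is given, so day and processing of the arrays cannot be told apart.

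Other genes of mitochondrial gene expression were read from lists by role. None of them passed the test for 4OHT, against 3.22% of all genes. Beside the counts below, 35.1% of all genes rose and 18.8% fell with day. Above 0 with 4OHT on day 4 were 56.7% of all genes, and below 0 on day 6 were 50.5%. Counts with day are of values as deposited, and the relation of the days' scales is not known. The 4 measured mitoribosomal proteins with other names (Dap3, Chchd1, Ptcd3 and Gadd45gip1) were above 0 on day 4 and below 0 on day 6 in all 4, with medians of 0.18 and -0.08. With day, 2 of the 4 rose. Of the 11 tested mitochondrial translation factors, 10 were above 0 on day 4 and 10 below 0 on day 6, with medians of 0.18 and -0.15, and 9 rose with day and 0 fell. Gfm1, the translocation factor, read 87.3 and 81.1 at day 4 and 271 and 196 at day 6. Guf1, the homologue of bacterial LepA, read 8.69 and 9.43, then 59.1 and 75.3.

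The 25 genes of mitoribosome assembly and rRNA modification had 4OHT medians of 0.15 and -0.11. Of them, 12 rose with day and 1 fell, against 35.1% and 18.8% of all genes. Noa1, a GTPase of small-subunit assembly, read 59.1 and 36.4 at day 4 and 155 and 92.6 at day 6. Its 4OHT effect was -0.58 (limma, adjusted p = 0.179). Eral1, the chaperone of the small-subunit rRNA, differed by 0.30 and 0.36, and Mettl17, needed for small-subunit assembly, by 0.37 and 0.38. For Mettl17 the effect was -0.00 (-7.43e-05) without _x_at and _s_at probe sets. Members of this list thus lay on both sides of 0.

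The 12 genes that copy and transcribe mitochondrial DNA had 4OHT medians of 0.11 and -0.11. Of them, 8 rose with day, against 35.1% of all genes. Polg, the DNA polymerase, read 70.6 and 120 at day 4 and 116 and 156 at day 6, with an effect of 0.51 (limma, adjusted p = 0.271). Mterf1a, a transcription terminator, differed by 0.39 and 0.36. Lrpprc, which stabilises mitochondrial messages, read 35.4 and 26.4, then 204 and 126, with an effect of -0.45 (limma, adjusted p = 0.354).

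Of the 10 regulators of mitochondrial biogenesis, 5 rose with day and 1 fell, against 35.1% and 18.8% of all genes. Ppargc1a, a coactivator of these genes, read 37.6 and 20.9 at day 4 and 56.4 and 31.0 at day 6, with a 4OHT effect of -0.58 (limma, adjusted p = 0.182). Its relative Pprc1 read 55.3 and 100, then 196 and 260, with an effect of 0.54 (limma, adjusted p = 0.24). Nrf1 read 30.8 and 53.4, then 60.5 and 90.0, with an effect of 0.52 (limma, adjusted p = 0.255). In Ppargc1a the 4OHT array was lower on both days, and in Pprc1 and Nrf1 it was higher on both.

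Members grouped by promoter motif had these medians. The 25 with ETS letters had 4OHT differences of 0.16 on day 4 and -0.27 on day 6, and the 42 without them 0.08 and -0.14. Over time they had 0.92 (untreated) and 0.46 (4OHT), against 0.67 and 0.31 without. The 12 with NRF1 letters had 0.05 and -0.23 with 4OHT, and the 55 without 0.12 and -0.23. Over time the order was the other way from ETS, with 0.65 and 0.26 against 0.77 and 0.41 without. The 21 with YY1 letters had 0.18 and -0.26 with 4OHT, and the 46 without 0.10 and -0.23. Over time YY1 gave 0.73 and 0.42 against 0.75 and 0.35 without. The 5 with an E-box had 0.16 and -0.30 with 4OHT, and the 62 without 0.11 and -0.23. Over time the E-box gave 1.09 and 0.50 against 0.68 and 0.35 without. These are descriptions of letters in promoters and of medians, and no test was made between them.

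Values of the cytosolic ribosome and of the respiratory chain stand beside those of the members. The 43 cytosolic ribosomal protein genes had 4OHT medians of 0.01 on day 4 and -0.08 on day 6, and a median gap between days of -0.04. The 78 genes of the respiratory chain and ATP synthase had -0.04 and -0.45, and a gap of -0.35, next to -0.36 for the members. Over time the cytosolic genes had medians of 0.50 (untreated) and 0.42 (4OHT), the respiratory chain 1.12 and 0.67, and the members 0.72 and 0.35. In the limma test 0 cytosolic genes and 1 respiratory chain gene, which fell, passed for 4OHT, against 3.22% of all genes. No test of the differences between these families was made.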

How the data were processed

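Per the labels' protocols, a kit that copies RNA from its 3' end labelled 100 ng of total RNA with biotin. The authors deposited linear intensities, already summarised by probe set. How background, scaling and summary were handled is not stated in the sources used here, nor is how the days were scaled to each other. The number of arrays limits the precision.

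Of 45101 probe sets, 34958 name 1 gene, and for each gene the probe set of highest mean log2(intensity + 16) was used. Single contrasts compare 1 array with 1 and carry no p-value. The 4OHT contrasts share no array with each other, nor do the contrasts over time, but each 4OHT contrast shares arrays with each contrast over time. limma 3.58.1 in R 4.3.3 was fitted over 13192 genes with 4OHT and day as terms, Benjamini-Hochberg adjustment and a threshold of 0.05. It has 1 residual and 15.2 prior degrees of freedom and was tested on simulated data. Its p-values measure only the spread between these arrays, which may be technical. "Rose" and "fell" mean past this test.

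Named members were the 8 highest and 8 lowest by the smaller 4OHT difference of the days, 5 and 5 by day, the 4 widest of opposite sign, a set of known roles, and up to 3 genes of each other list. The members and lists were chosen with earlier results of these data known. Software was Python 3.11.15 with numpy 2.4.6, pandas 2.3.3 and, for plots, matplotlib 3.10.9. Sequences are from RefSeq.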

Additional observations from a re-analysis of the deposited data

Results flagged for a closer look

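The 4OHT differences of the days had opposite signs in the members' median, 0.14 on day 4 and -0.23 on day 6, and the median over members of the gap between the days was -0.36. Mrpl34 had the widest gap of any member, -1.34. For Mrpl36 it was -1.11, for Mrps23 -0.81 and for Mrps28 -0.80. With 1 array per group these differences between the days were not tested.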

How the results depend on the processing

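No replicate could be left out, since each group had 1 array. No paired analysis was possible because the labels give no replicate numbers to pair by; the day term does compare 4OHT with untreated within each day. Across the alternatives, no member passed the test for 4OHT. The lowest adjusted p of a member ranged from 0.0647 to 0.287 with the day term and was 0.999991 without it. A threshold of 1.5-fold in place of 2-fold counted 4 members on day 4 and 4 on day 6 with 4OHT, and 54 untreated and 29 4OHT members over time. Quantile normalization gave a day 6 median with 4OHT of -0.12, medians over time of 0.12 (0.125, untreated) and -0.094 (4OHT, reversed), 9 and 5 members at 2-fold over time, and 24 members past the test for day. Median centring gave medians over time of 0.30 (0.295) and 0.019. At 2-fold over time 8 untreated members were then higher and 5 lower, against 13% and 18.8% of all genes. Past the test for day, 21 rose and 8 fell, against 23% and 41.3%. A pseudocount of 1 counted 1 member at 2-fold with 4OHT on each day and gave an untreated median over time of 0.82. A pseudocount of 64 counted 11 untreated and 6 4OHT members at 2-fold over time and gave a 4OHT median of 0.25. The mean of all probe sets gave an untreated median over time of 0.60. In 4OHT organoids 5 members were then 2-fold higher and 0 lower, against 9.57% and 0.811% of all genes. Without _x_at and _s_at probe sets, 73 members were left, with an untreated median over time of 0.86. The cause of these shifts was not tested. The number of members above 0 with 4OHT on both days stayed within 8 to 18. Of 411 values of 52 named genes, most of them picked for large differences, 7 in 6 genes changed sign. Of all 76 members, the sign changed under at least 1 alternative in 12 with 4OHT on day 4, 20 on day 6, 30 over time in untreated and 31 in 4OHT organoids.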
